A study of Mus musculus with 5 samples.

Results

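The genes described here are the CXCR4 receptor and 7 chemokine ligands, Cxcl12, Ccl2, Ccl7, Cxcl1, Cxcl2, Cxcl3 and Cxcl10, 8 of the 18194 genes that the arrays name. They were taken by symbol as every probe set annotated with one of these symbols alone, which gave 12 of 45101 probe sets. The set was selected on the measured intensities of Cxcr4, which at 24 h was far under its wild-type level in the knockout, so the genotype differences and time changes below are descriptions without a test. The cells were granulosa cells, the somatic cells that line the ovarian follicle. Immature mice were primed for 48 h with equine chorionic gonadotropin (eCG), a follicle growth stimulus, before an ovulatory dose of human chorionic gonadotropin (hCG). Knockout (KO) cells, in which both copies of the genes encoding the transcription factors C/EBPα and C/EBPβ were floxed and Cyp19-cre was present, per the labels, were collected 4, 8 and 24 h after hCG. Wild-type (WT) cells were collected 8 and 24 h after hCG. Mice of the 24 h groups were 24 days of age and the rest 23 days. Each of the 5 groups was 1 array, so no replicate spread exists. Cyp19-cre is known to act in granulosa cells. Deletion in other ovarian cells of the preparation was not measured. The labels do not say whether animals were pooled or whether the WT mice carried floxed alleles.

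Chemokines are small secreted proteins that attract cells through receptors coupled to G proteins. CXCL12 is the ligand of CXCR4, and the pair guides stem cells, leukocytes and endothelial cells. CXCL12 also binds ACKR3, an atypical receptor that takes it up. CCL2 and CCL7 attract monocytes through CCR2. CXCL1, CXCL2 and CXCL3 attract neutrophils through CXCR2, and CXCL10, which interferons induce, attracts T cells through CXCR3. Ovulation and the early corpus luteum are known for leukocyte entry and new vessels.

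Promoter sequence was available in the RefSeq table (GRCm38.p6) for 6 of the 8 genes, Ccl2 and Ccl7 being the others. The 250 bases before the start are shown for Cxcr4, the gene of largest genotype difference, and for the neutrophil chemokines Cxcl1, Cxcl2 and Cxcl3, neighbours on chromosome 5 whose signals are compared below. They lie at chr1:128592300-128592549 (minus strand), chr5:90890995-90891244, chr5:90903649-90903898 and chr5:90785851-90786100 (plus strand), and read 5′ to 3′ along the gene. Capitals mark matches to the C/EBP consensus TTNNGNAA or to the NF-kB consensus, on either strand.
Cxcr4: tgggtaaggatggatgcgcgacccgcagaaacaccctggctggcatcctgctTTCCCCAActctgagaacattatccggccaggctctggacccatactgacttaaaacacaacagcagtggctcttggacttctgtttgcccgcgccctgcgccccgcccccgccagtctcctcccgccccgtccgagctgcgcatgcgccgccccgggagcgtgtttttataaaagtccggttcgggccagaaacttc
Cxcl1: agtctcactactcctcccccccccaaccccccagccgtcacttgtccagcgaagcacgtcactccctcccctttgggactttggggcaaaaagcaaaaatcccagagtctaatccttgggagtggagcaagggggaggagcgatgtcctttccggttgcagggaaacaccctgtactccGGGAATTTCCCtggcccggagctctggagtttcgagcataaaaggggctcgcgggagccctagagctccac
Cxcl2: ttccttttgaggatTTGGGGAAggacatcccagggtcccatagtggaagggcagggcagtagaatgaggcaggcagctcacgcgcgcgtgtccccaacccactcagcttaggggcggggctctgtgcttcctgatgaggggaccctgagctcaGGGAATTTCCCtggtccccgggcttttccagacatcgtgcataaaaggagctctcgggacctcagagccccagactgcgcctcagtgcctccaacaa
Cxcl3: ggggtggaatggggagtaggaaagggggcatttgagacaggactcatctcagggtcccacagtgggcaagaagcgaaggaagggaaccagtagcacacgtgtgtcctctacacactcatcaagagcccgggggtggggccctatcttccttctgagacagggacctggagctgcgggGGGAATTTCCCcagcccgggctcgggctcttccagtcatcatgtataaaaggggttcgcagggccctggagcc
Cxcl1, Cxcl2 and Cxcl3 carry the same 11 letters GGGAATTTCCC, in which the NF-kB consensus matches both strands with overlap. The match on the plus strand begins at base -71 in Cxcl1, -97 in Cxcl2 and -73 in Cxcl3, counted back from the base before the start. Of 32851 promoters of that table, 8.46% hold an NF-kB match between 250 bases before and 50 after the start. The C/EBP letters occur in 40.7% of those promoters, once in Cxcr4 (from -198 to -191) and once in Cxcl2 (from -236 to -229), and not in Cxcl1, Cxcl3 or Cxcl12. Cxcl10 holds 2 C/EBP matches, 4 overlapping or separate NF-kB matches and 1 match to the interferon-stimulated response element, which 3.44% of promoters hold. The hypoxia response cores ACGTG or GCGTG, present in 43.8% of promoters, occur in each of these promoters except that of Cxcl12. A match is a run of letters and no evidence of binding.

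The deposited values are intensities, and an intensity of 22, the 40th percentile over the 5 arrays, served as a floor. A gene passed the size rule when a pair of arrays differed at least 2-fold (1 on the log2 scale) and the higher value reached the floor. "Rose", "fell", "higher" and "lower" are used for genes past this rule. Where a gene has several probe sets, the one with the highest mean log2 value stands for it in counts. Probe sets of the same gene differed in their log2 genotype difference by 0.28 (8 h) and 0.40 (24 h), given as the SD. That SD measures spread between probe sets only, not between animals or replicate arrays. Log2 values of the KO array at 4 h correlated with the other arrays at r = 0.86 to 0.91 across 15327 genes, against 0.94 to 0.98 among those 4, and its median intensity was 54 against 31 or 32. Changes from 4 h are therefore read after quantile normalization, and its deposited values serve to say whether a probe set reached the floor, or are given as such. Of the targeted genes, Cebpa had intensities of 19 in KO against 685 in WT at 8 h, and 38 against 352 at 24 h. Cebpb had 1127 in KO against 7436 in WT at 8 h, and 85 against 3976 at 24 h, on probe set 1418901_at. On 1427844_a_at it had 275 in KO against 2926 in WT at 8 h, and 23 against 1571 at 24 h. As deposited, the KO array at 4 h had 40 for Cebpa, and 42 and 25 for these Cebpb probe sets. All 10 granulosa cell markers measured were above the floor on all 5 arrays, and all 8 stromal markers were too.

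Only some of the chemokine genes were measurable. As deposited, Cxcr4, Ccl2 and Cxcl1 reached the floor on all 5 arrays, as did 2 of the 3 probe sets of Cxcl12. Cxcl2 and Cxcl10 stayed under it on every array, at 6 to 14 and at 11 to 18, so no fold is given for them. Ccl7 reached it in the WT array at 24 h and the KO array at 4 h, and Cxcl3 in the KO array at 8 h alone. On the 4 h array this depends on its scale. After quantile normalization Ccl2 and Ccl7 were each at 14.5 there, under the floor of 21.1 on that scale.

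**Figure D1:**
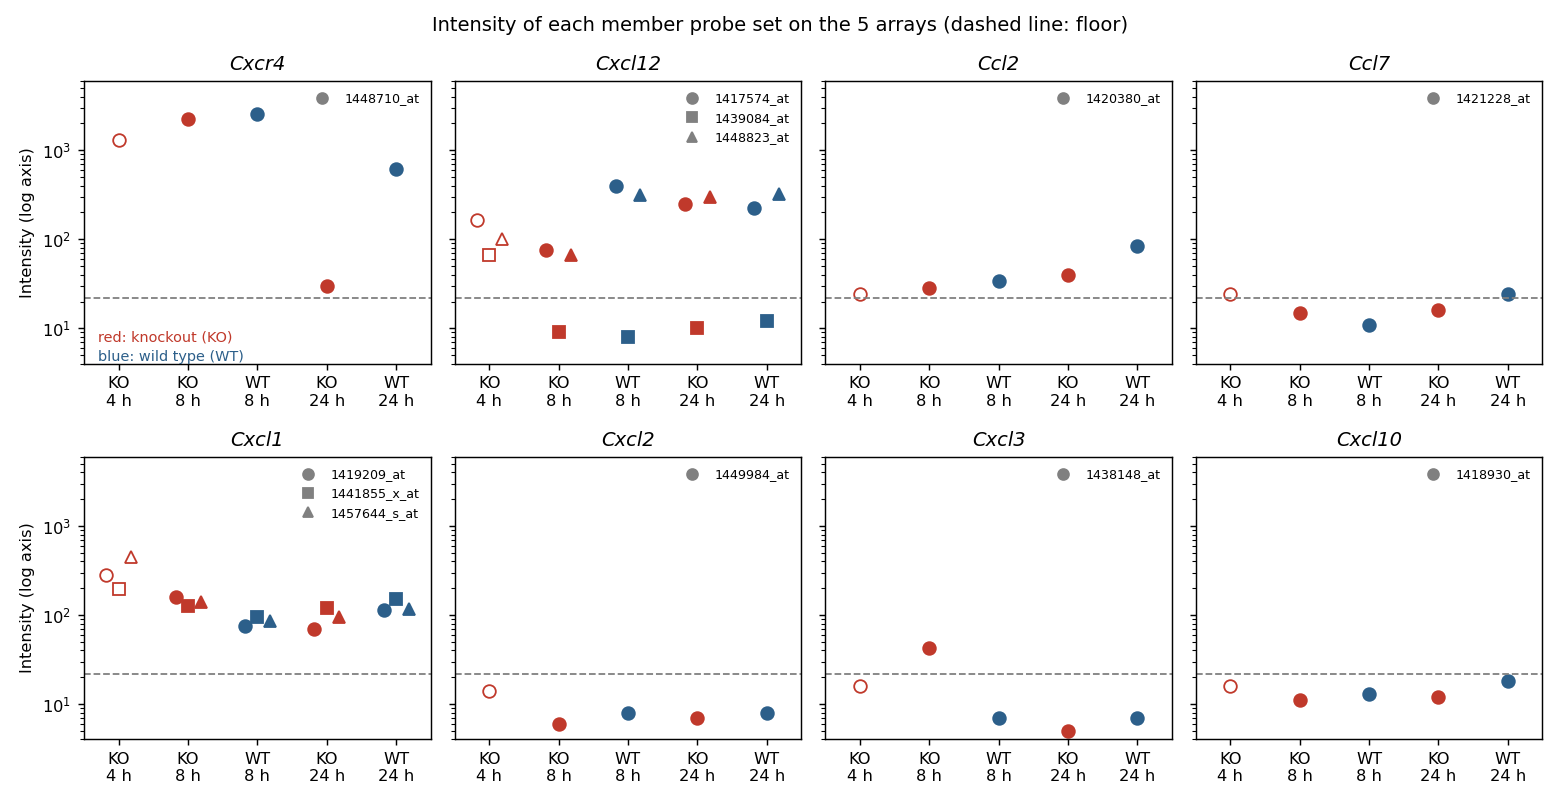
Intensity (log axis) of the 12 probe sets on the 5 arrays, KO in red and WT in blue, with 1 point per probe set and array, and the floor of 22 dashed. Open symbols are the KO array at 4 h, whose scale differs. Cxcr4 is at 30 in KO at 24 h and at 614 in WT at 24 h, and at 8 h at 2238 in KO and 2567 in WT.

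Cxcr4, the receptor of CXCL12, was almost the same in both genotypes at 8 h and far lower in KO at 24 h. Intensities of its single probe set, 1448710_at, were 2238 in KO and 2567 in WT at 8 h, a log2 difference of -0.20. At 24 h it had 30 in KO and 614 in WT, which is 20.5-fold lower in KO, a log2 difference of -4.36. The KO value at 24 h lay just above the floor and was the lowest of the 4 arrays of 8 and 24 h. Only 4 of 13052 genes had a larger negative difference at 24 h, a position that follows from how the gene was chosen. At 8 h Cxcr4 ranked 3359 from the lowest among 12924 genes.

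Cxcr4 fell with time in both genotypes. In KO it was 30 at 24 h against 2238 at 8 h, 74.6-fold lower. In WT it was 614 at 24 h against 2567 at 8 h, 4.18-fold lower. The difference of these changes was -4.16 on the log2 scale, second from the lowest among 13316 genes. That position too follows from how the gene was chosen, since it rests on the same KO value at 24 h. After quantile normalization of the 5 arrays, Cxcr4 in KO had intensities of 823 at 4 h, 2488 at 8 h and 33.4 at 24 h. It was thus 3.02-fold higher at 8 h than at 4 h on that scale, where 17.9% of genes were higher at 8 h and 11.9% lower. Without that step the 8 h value was 1.70-fold the 4 h value, short of the rule.

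Some markers of cells that also carry this receptor differed between the 24 h arrays, and others did not. Over all genes above the floor at 24 h, 3.13% were higher and 3.92% lower in KO, with a median of 0.05. Of 5 pan-leukocyte markers, Coro1a (3.43-fold), Ptprc (2.24-fold) and Cd53 (2.15-fold) were lower in KO, with a list median of -1.10, and their summed intensity was 300 in KO against 491 in WT. Of 11 endothelial markers above the floor, 3 were lower (Emcn, Cldn5 and Cdh5), with a median of -0.82, and the 12 on the array summed to 698 in KO against 1364 in WT. None of 4 lymphocyte markers above the floor passed the rule, with a median of 0.01, and the 7 on the array summed to 182 in both genotypes. Of 9 macrophage markers above the floor 1 was lower (Lyz2), with a median of -0.18. Of 2 neutrophil markers above the floor 1 was lower (S100a8, at least 2.95-fold), with a median of -1.30. The 10 granulosa cell markers on the array, of 12 listed, summed to 65175 in KO and 65063 in WT at 24 h. These sums hold differences of both signs, such as Cyp11a1 (12292 in KO against 19408 in WT) and Amhr2 (7255 against 4073). Cyp19a1 and Lhcgr, also on the list, had no probe set annotated with their symbol alone. None of the 10 passed the rule, with a median of 0.29, 7 lying above WT and 3 below. The largest of these differences, that of the endothelial sialomucin gene Emcn, was -2.52, against -4.36 for Cxcr4. The part of these cells in the Cxcr4 difference was not tested.

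Cxcl12, the ligand of CXCR4, was lower in KO at 8 h and did not pass the rule at 24 h. Probe set 1417574_at had 75 in KO and 401 in WT at 8 h, 5.35-fold lower in KO. Probe set 1448823_at had 67 in KO and 315 in WT, 4.70-fold lower. Both probe sets thus gave a KO value far under the WT value, with log2 differences of -2.42 and -2.23. At 24 h the first had 248 in KO and 227 in WT, and the second 300 in KO and 324 in WT. Those log2 differences, 0.13 and -0.11, are smaller in size than the SD of 0.40 between probe sets at 24 h. That SD holds no spread between animals. The third probe set, 1439084_at, was at 8 to 12 on these 4 arrays and reached the floor on the KO array at 4 h alone, so no genotype difference is read from it.

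In KO, Cxcl12 rose between the later times, with 248 at 24 h against 75 at 8 h (3.31-fold) on the first probe set and 300 against 67 (4.48-fold) on the second. In WT the changes were 1.77-fold down and 1.03-fold up, neither past the rule. After quantile normalization the first probe set had 112 at 4 h, 83 at 8 h and 277 at 24 h in KO, and the second 69.4, 73.7 and 337. The KO arrays at 4 and 8 h were therefore both low on that scale, and the 24 h array high.

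Stromal, vascular and theca markers were also lower in KO at 8 h. All 8 stromal markers were lower in KO at 8 h, with a median of -2.18, and they summed to 4980 in KO against 22808 in WT. Of 8 pericyte and smooth muscle markers 6 were lower, with a median of -2.09 and a sum of 1680 in KO against 6843 in WT. Of 12 endothelial markers 11 were lower, with a median of -1.72 and a sum of 630 in KO against 2176 in WT. Of 5 markers of theca, the steroid-producing layer outside the granulosa cells, 4 were lower, with a median of -1.75 and a sum of 1577 in KO against 3374 in WT. Over all genes above the floor the median at 8 h was -0.01, and 1.58% were higher and 4.05% lower in KO. At 24 h the stromal median was -0.55 and 1 of the 8 was lower (Mgp), with a sum of 11062 in KO against 16730 in WT. Fewer cells of a type and less RNA per cell cannot be told apart in such bulk RNA, and the part of these cells in the Cxcl12 difference was not tested.

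**Figure D2:**
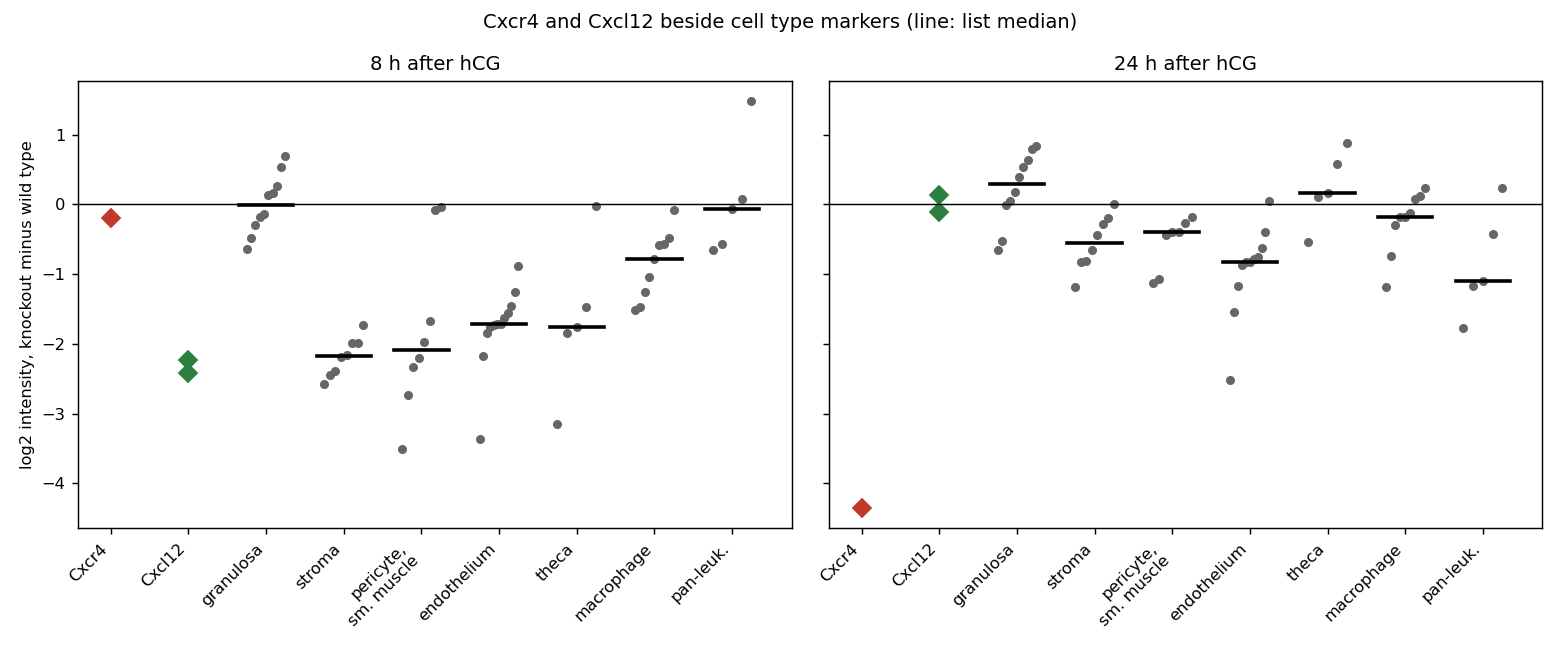
Log2 difference in intensity, KO minus WT, at 8 h (left) and 24 h (right). Diamonds are probe sets of Cxcr4 and Cxcl12, dots are marker genes above the floor, and black lines are list medians. At 8 h Cxcl12 lies beside the stromal median of -2.18, and at 24 h Cxcr4, at -4.36, lies below every marker shown.

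By a rule on likeness, the 5 genes closest to Cxcr4 in log2 values, each centred on its mean over the 4 arrays of 8 and 24 h, were Star, Ptgs2, Slc7a8, Fabp4 and Ereg, of 13310 genes compared. Their distances were 1.77 to 2.05 on the log2 scale, and none had a 24 h difference past -2.29. Slc7a8, an amino acid transporter gene, had 4629 in KO against 4243 in WT at 8 h, and 245 against 1199 at 24 h. Star, which moves cholesterol into mitochondria, had 7421 in KO against 9231 in WT at 8 h, and 327 against 1259 at 24 h. Unlike Cxcr4, Ptgs2 and Ereg already passed the rule at 8 h, with 409 in KO against 865 in WT for the prostaglandin synthase gene Ptgs2 and 443 against 1019 for Ereg, an EGF receptor ligand gene. Fabp4 had 1016 in KO against 1316 in WT at 8 h. At 24 h Ptgs2 had 11 in KO against 47 in WT, Ereg 24 against 75 and Fabp4 31 against 96. That KO value of Ptgs2 was under the floor and those of Ereg and Fabp4 just above it, which limits these differences. The 3 genes closest to Cxcl12 lay nearer, at distances of 0.39 to 0.47. They were Tril, a Toll-like receptor accessory gene, the collagen gene Col1a2 and the secreted guidance factor gene Slit3. Tril had 64 in KO against 315 in WT at 8 h, and 153 against 147 at 24 h.

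Among the monocyte chemokines, Ccl2 was lower in KO at 24 h. It had 28 in KO and 34 in WT at 8 h, and 40 in KO and 84 in WT at 24 h, 2.10-fold lower in KO and just past the rule. In WT it rose 2.47-fold, being 84 at 24 h against 34 at 8 h, while the KO change, 40 against 28, was 1.43-fold and not past it. After quantile normalization Ccl2 in KO had 14.5 at 4 h, 31.2 at 8 h and 43.8 at 24 h, higher at 8 h than at 4 h by the rule, with the 4 h value under the floor of 21.1 on that scale. Ccl7, the next gene on chromosome 11, had 15 in KO and 11 in WT at 8 h, both under the floor, and 16 in KO and 24 in WT at 24 h. Its WT increase to 24 at 24 h, against 11 at 8 h, is at least 1.09-fold, a call lost when values under the floor were raised to it. The WT array at 24 h was thus the highest of the 8 and 24 h arrays for both genes, at low signal. Ccl12, a further monocyte chemokine of that cluster, had 10 in KO and 10 in WT at 8 h, and 11 in KO against 28 in WT at 24 h. With that KO value under the floor, the 24 h difference is at least 1.27-fold.

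Among the neutrophil chemokines, Cxcl3 was higher in KO at 8 h, and Cxcl1 passed the rule on 1 of its 3 probe sets. Cxcl3 had 43 in KO and 7 in WT at 8 h, at least 1.95-fold higher in KO, since the WT value was under the floor. The call was lost when that value was raised to the floor. At 24 h it was under the floor in both, at 5 in KO and 7 in WT. After quantile normalization it had 9.19 at 4 h, 48.1 at 8 h and 5.85 at 24 h in KO, so the signal stands on 1 array. Cxcl1 had 159 in KO and 76 in WT at 8 h on probe set 1419209_at, 2.09-fold higher. On 1457644_s_at it had 140 in KO and 85 in WT, 1.65-fold, and on 1441855_x_at 127 in KO and 96 in WT, 1.32-fold. All 3 were above WT, but the first alone passed the rule, and the suffixes of the others mark probes shared with similar transcripts. At 24 h the 3 probe sets lay below WT, at 70 in KO against 114 in WT, 96 against 118 and 120 against 151, none past the rule.

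In WT, Cxcl1 was 1.39- to 1.57-fold above its 8 h value at 24 h on the 3 probe sets, and in KO it was 1.06- to 2.27-fold below it. Only the KO change of 1419209_at, 70 at 24 h against 159 at 8 h, passed the rule. After quantile normalization, that probe set in KO had 191 at 4 h, 176 at 8 h and 76.5 at 24 h. Cxcl5, another ligand of CXCR2 encoded close to these genes, had 38 in KO and 13 in WT at 8 h, at least 1.73-fold higher, and 9 in both at 24 h. Cxcr2 itself, the receptor of these ligands, was under the floor on all 5 arrays. Of 6 neutrophil markers on the array, 2 were above the floor in the genotype comparisons. S100a8 had 21 in KO against 65 in WT at 24 h and passed the rule, and S100a9 had 31 against 61, a log2 difference of -0.98 that just missed it. Neither passed at 8 h.

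In counts of genes, 1 of the 8 was higher in KO at 8 h (Cxcl3) and 1 lower (Cxcl12), with 5 of them above the floor. Over all 12924 genes above the floor, 1.58% were higher and 4.05% lower. At 24 h none was higher and 2 were lower (Cxcr4 and Ccl2), again of 5 above the floor, where 3.13% of 13052 genes were higher and 3.92% lower. In KO, 24 h against 8 h, 1 was higher (Cxcl12) and 2 lower (Cxcr4 and Cxcl3), where 6.85% and 5.26% of genes were. In WT, 2 were higher (Ccl2 and Ccl7) and 1 lower (Cxcr4), where 5.55% and 6.45% of genes were. When the KO change was set against the WT change, 1 was higher in KO (Cxcl12) and 4 lower (Cxcr4, Ccl7, Cxcl1 and Cxcl3), where 5.04% and 3.09% of genes were. With so few members above the floor, these shares are not read further.

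**Figure D3:**
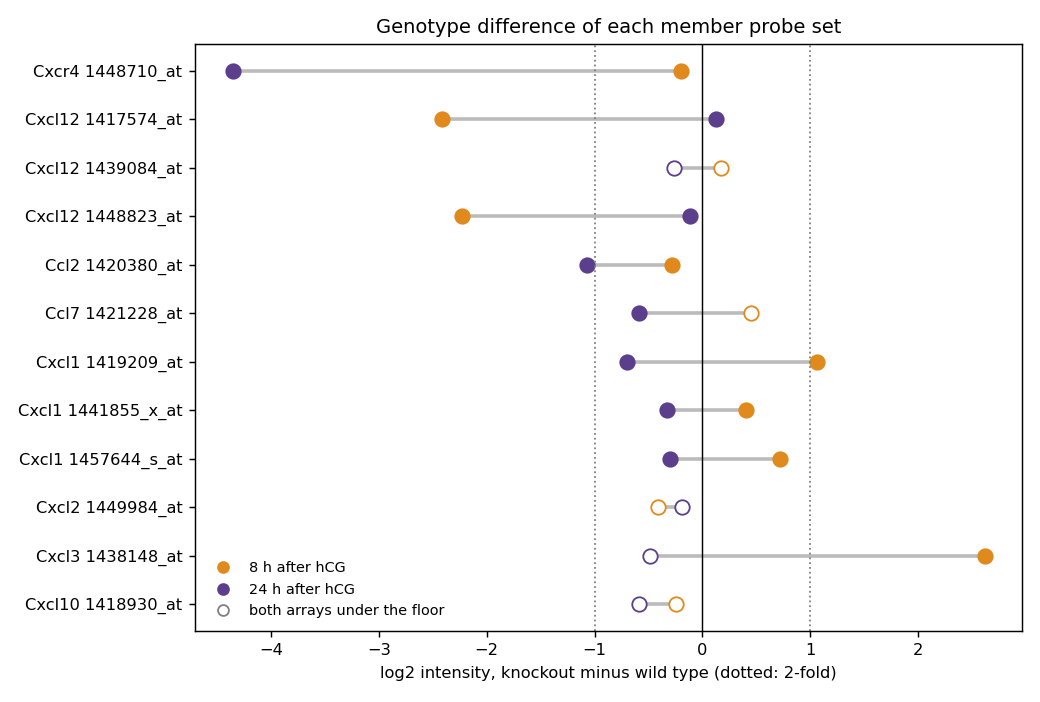
Log2 difference in intensity, KO minus WT, for the 12 probe sets at 8 h (orange) and 24 h (purple), with dotted lines at 2-fold and open symbols where both arrays were under the floor. The Cxcr4 difference is -0.20 at 8 h and -4.36 at 24 h, and the Cxcl12 differences are -2.42 and -2.23 at 8 h and 0.13 and -0.11 at 24 h.

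Other chemokine ligands went both ways at 8 h. Of 17 above the floor, out of 31 listed, 3 were higher in KO and 5 lower, where 1.58% and 4.05% of all genes were. The list median was -0.40, against -0.01 over all genes. Cxcl14 had 67 in KO and 313 in WT, 4.67-fold lower, and the macrophage chemokine gene Ccl6 had 37 in KO and 92 in WT, 2.49-fold lower. Ccl27a had 140 in KO and 48 in WT, 2.92-fold higher, on a probe set whose suffix marks probes shared with similar transcripts. Ccl9, Pf4 and Ccl11 were the other genes lower in KO, and Cxcl5 and Cxcl13 the others higher. Ccl11 (17 in KO against 36 in WT) and Cxcl5 (38 against 13) each had 1 value under the floor. Raising it to the floor left -0.71 and 0.79, short of the rule. At 24 h 1 of 16 was higher, Ccl27a again, with 230 in KO and 81 in WT, and 2 were lower, with a median of -0.13. The all-gene shares there were 3.13% higher and 3.92% lower, with a median of 0.05. The lower genes were Ccl12, at least 1.27-fold with the KO value under the floor, and Ccl17, a ligand of CCR4. Ccl17 had 49 in KO and 306 in WT, 6.24-fold lower. Of 9 macrophage markers above the floor at 8 h 4 were lower (C1qc, Lyz2, C1qa and Mrc1), and the 10 on the array summed to 668 in KO against 1348 in WT. At 24 h Lyz2 alone was lower, with sums of 1140 in KO against 1736 in WT. Their part in the ligand differences was not tested.

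Among other receptors, Ackr3 was lower in KO at 24 h and no receptor passed the rule at 8 h. Ackr3, the atypical CXCL12 receptor, had 244 in KO and 679 in WT at 24 h, 2.78-fold lower. The suffix of its probe set marks probes shared with similar transcripts. At 8 h Ackr3 had 173 in KO and 289 in WT, a log2 difference of -0.74. It was the only one of 8 receptors above the floor at 24 h, of 22 listed, that passed, and the list median was -0.33. Both CXCL12 receptors were therefore lower in KO at 24 h, while Cxcl12 itself did not differ past the rule. Ccr2, the receptor of CCL2 and CCL7, had 34 in KO and 32 in WT at 8 h, and 42 in KO and 45 in WT at 24 h. Cxcr3, the receptor of CXCL10, was under the floor on these 4 arrays, at 17 to 19.

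**Figure D4:**
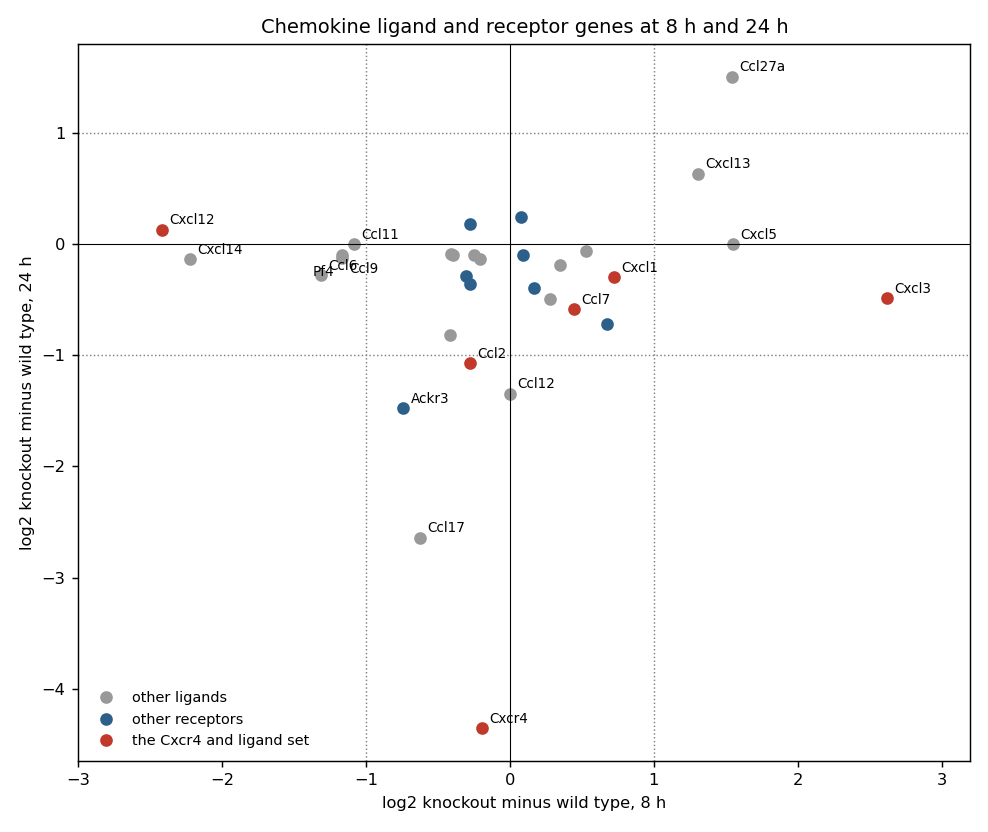
Log2 difference, KO minus WT, at 8 h (horizontal axis) and 24 h (vertical axis) for chemokine ligand and receptor genes that reached the floor on at least 1 of the 4 arrays. Dotted lines mark 2-fold. Cxcr4 (-4.36), Ccl17 (-2.64) and Ackr3 (-1.48) have the lowest 24 h values plotted, and Cxcl3 (2.62) the highest 8 h value.

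Genes that act with CXCR4 or upstream of chemokine genes passed the rule in small numbers, where 5.63% of all genes passed at 8 h and 7.04% at 24 h, so with lists of this size the counts are not read further. Of the CXCR4 pathway list, Rgs1, a brake on G protein signalling, was lower in KO at 8 h (12 against 37 in WT, at least 1.68-fold). It was the only one of 15 past the rule, with a median of 0.03. At 24 h 1 of 16 was higher, the lipid kinase gene Pik3cg (30 in KO against 14 in WT, at least 1.36-fold), with a median of 0.29. The G protein subunit, arrestin and receptor kinase genes of the list did not pass at either time, and Hif1a, a known inducer of Cxcr4, had 7003 in KO against 5187 in WT at 8 h and 4977 against 3814 at 24 h. Of 15 NF-kB and inflammatory regulators above the floor at 8 h, Tnfaip3, a feedback inhibitor of NF-kB, was 2.71-fold higher (285 in KO against 105 in WT). Bcl3, a nuclear partner of NF-kB, was 2.09-fold lower (56 against 117), and the list median was 0.26. None of 16 passed at 24 h, with a median of -0.27. In the interferon list, Oasl2 was lower at 8 h (21 in KO against 54 in WT, at least 2.45-fold), 1 of 12, with a median of -0.23. Psmb8 (542 in KO against 218 in WT) and Usp18 (72 against 36) were higher at 24 h, 2 of 11, with a median of 0.48 against 0.05 over all genes.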

How the data were processed

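Granulosa cell RNA (5 ug per the labels' protocols, RNeasy extraction, biotin-labelled cRNA) was measured on Affymetrix 3' arrays, 1 per group. The authors' deposited values are intensities, whole numbers on a linear scale. Per the submitters' processing notes the tools were RMA and affy (versions not given). Since the authors' deposited intensities are linear, log2 was taken of them here. No genome build is stated. Names came from the platform annotation, with symbols updated by Entrez identifier (34754 of 34958 probe sets with 1 symbol matched a RefSeq table of GRCm38.p6). A further 932 had several symbols and 9211 none listed.

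Groups came from the titles. With 1 array per group no test was made, and the size rule described above was run over all genes in Python 3.11.15 with pandas 2.3.3. It was tested on simulated data, with changes above the threshold planted in genes well above the floor. Calls near 2-fold or near the floor were not covered by that test. Named genes were the 8 members, at most 4 genes per list and comparison past the rule in a genotype difference, and the genes of closest pattern. In addition, Hif1a, Ccr2, Cxcr2, Cxcr3, Ccl9, Pf4, Ccl11, Cxcl13 and S100a9 were named after their values were seen. The members and lists were chosen with earlier results of these data known. Alternatives covered threshold, floor, scaling and choice of probe set. The number of arrays limits the precision.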

Additional observations from a re-analysis of the deposited data

Results flagged for a closer look

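For 4 genes the genotype difference took opposite signs at the 2 times, and the difference between the times was at least 2-fold. With 1 array per group this difference was not tested. Cxcl12 had a log2 difference, KO minus WT, of 0.13 at 24 h and -2.42 at 8 h, which gives 2.55 for the change between them. Its other measurable probe set had the same sign at both times, -0.11 at 24 h and -2.23 at 8 h, as did the mean of its probe sets (-0.08 and -1.49), so the sign at 24 h is not settled. Cxcl3 had -0.49 at 24 h and 2.62 at 8 h, a change of -3.10, with 3 of its 4 values under the floor. Raising low values to the floor made that change -0.97. Cxcl1 had -0.30 at 24 h and 0.72 at 8 h, a change of -1.02, on a probe set shared with similar transcripts. That change was -0.74, no longer past the rule, with probe sets chosen without the 4 h array, and -1.77 without the less specific probe sets. Ccl7 had -0.58 and 0.45, a change of -1.03 that became -0.13 with the floor.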

How the results depend on the processing

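Of 480 values of single members under 10 alternatives, none past the rule changed sign, 28 lost the call and 13 gained it. Another threshold or floor percentile leaves the log2 differences as they are. A gene with a single probe set also keeps its value when probe sets are chosen otherwise. No sign could change in those cases, so the absence of sign changes says little. Cxcr4 and Ccl2 at 24 h passed under each alternative except that Ccl2 missed a 3-fold threshold, and Cxcl12 at 8 h passed under all of them. At a 3-fold threshold, 1 member passed at 24 h between genotypes, 1 in the WT time change and 3 in the difference of changes. With the floor at the 60th percentile (an intensity of 66), 1 passed at 8 h between genotypes (5.77% of genes) and 3 in the difference of changes (8.61%). The same counts, 1 and 3, came from raising values under the floor to it, where 5.09% and 7.47% of genes passed. Cxcl3 was then at 0.97 at 8 h and at -0.97 in the difference of changes, where Ccl7 was at -0.13. In the KO change from 4 to 8 h as deposited, 1 member was higher (Cxcl3) and 2 lower (Cxcl12 and Cxcl1), where 45.4% of 15198 genes passed. At 1.5-fold 5 passed (68.7% of genes) and at 3-fold 1 (19.3%). With probe sets chosen without the 4 h array 1 passed (44.8% of genes). After median centring or quantile normalization 3 were higher (Cxcr4, Ccl2 and Cxcl3) and 0 lower, where 30.4% and 29.8% of genes passed. With so few members these counts are not read further. Raising values to the floor and choosing probe sets without the 4 h array were added after seeing the data. Without the less specific probe sets Cxcl1 was called at 8 h, at 1.06.

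Over all genes, 727 passed between genotypes at 8 h (1708 at 1.5-fold, 269 at 3-fold) and 919 at 24 h (2855 and 288). In the KO time change 1574 passed (3639 and 537), in WT 1566 (3633 and 588), and in the difference of changes 1083 (2961 and 332). In the KO change from 4 to 8 h 6900 passed, against 10440 at 1.5-fold, 2930 at 3-fold, 4199 after median centring and 4103 after quantile normalization. There, 12.1% of calls were higher at 8 h as deposited, 61.3% after median centring and 59.98% after quantile normalization, and the median of all genes was -0.78 as deposited. In the difference of changes 62.0% of calls were higher, and 51.2% after median centring. No paired analysis was possible because each group has 1 array. Intensities near the floor limit Ccl7, Cxcl2, Cxcl3 and Cxcl10.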

Other observations

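Ccrl2, an atypical receptor that holds the chemoattractant chemerin, was chosen here after its values were seen. In WT it had 288 at 24 h against 64 at 8 h, and in KO 175 at 24 h against 102 at 8 h. The WT change is 4.5-fold and past the rule, and the KO change of 1.72-fold is not. Between genotypes it was not past the rule at 24 h (175 in KO and 288 in WT) or at 8 h (102 in KO and 64 in WT). Cxcl13, a B cell chemokine, had 89 in KO against 36 in WT at 8 h, 2.47-fold higher, and 31 against 20 at 24 h.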
